A study of Mus musculus with 8 samples.

Results

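B3galt2 and 7 related glycosyltransferase genes were followed in white adipose tissue of mice that overexpress the intracellular domain of Notch1. The members were B3galt1, B3galt2, B3galt4, B3galt6, B3gnt2, B4galt1, B4galt5 and B4galt6, matched by the accession of each probe. All 8 were measured, by 12 of the 55681 probes that are not controls, and they made up 8 of the 24653 gene names kept. B3galt2 was selected on its low log2 ratio of Ad/NICD over WT in these same arrays, and the other 7 were set beside it as related enzymes. The members' ratios are therefore described and not tested.

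The study compared 4 Ad/NICD samples with 4 wild-type (WT) samples, called biological replicates. All mice were 5 weeks old, of a mixed 129 × C57BL/6 background, and ate regular chow. Ad/NICD mice overexpress the Notch1 intracellular domain (NICD), the fragment of the receptor that enters the nucleus. Neither the promoter behind the transgene nor the fat depot or sex is given in the sources used.

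Galactosyltransferases are Golgi enzymes that move galactose from UDP-galactose onto a growing sugar chain of a protein or lipid. Those of the beta-1,3 family and those of the beta-1,4 family attach it through different linkages, and differ in sequence. Notch receptors themselves carry sugar chains built by such enzymes, among them O-fucose chains that fringe enzymes lengthen and B4galt1 can cap with galactose.

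Each of 4 arrays carried an Ad/NICD and a WT sample in different colours. Ad/NICD was read in red (Cy5) and WT in green (Cy3), because the authors' deposited table holds the red channel under Ad/NICD and the green channel under WT, and the labelling protocol assigns Cy5 to test samples. The dye tag of each sample states the opposite, so this direction is likely and not certain; with the dyes exchanged, every sign would turn and the levels of the 2 genotypes would trade places. No array had its dyes swapped, so a probe's own dye bias and genotype cannot be told apart. The share of spots flagged as clear of background ran from 58.1% to 68.6% over the 8 channels. Xist, the transcript of the inactive X chromosome, stood at log2 signals of 5.87 in Ad/NICD and 6.12 in WT of replicate 4, against 10.15 to 10.45 in Ad/NICD and 10.19 to 10.27 in WT of the other replicates. The members' ratios are therefore also given without replicate 4. Ddx3y, Eif2s3y, Kdm5d and Uty, the other sex-linked genes looked for, were not kept. To be kept, a probe needed signal on at least 3 arrays. Whether replicate 4 differs in sex from the other replicates was not tested.

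B3galt2 adds galactose in beta-1,3 linkage to N-acetylglucosamine. The gene lies on chromosome 1 from 143640697 to 143649937 (GRCm38.p6) and has 1 probe on the array. Its log2 signals were 7.78, 7.17, 7.50 and 8.60 in Ad/NICD samples of replicates 1 to 4, against 10.68, 10.06, 10.68 and 10.72 in WT samples. Every Ad/NICD sample lay below every WT sample, and the highest Ad/NICD sample was that of replicate 4. The probe was well above background on 4 of 4 arrays in both channels, where the flags of replicate 1 were rebuilt from negative controls. The low side was therefore measured and not only bounded, though its size depends on the background correction.

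The log2 ratio of B3galt2, Ad/NICD over WT, was -2.91, -2.89, -3.17 and -2.12 on the 4 arrays. The mean was -2.77 ± 0.18 (SE, n = 4), a 6.82-fold lower signal in Ad/NICD. Without replicate 4 it was -2.99; leaving out any other array gave -2.73 to -2.64. Counted from the lowest mean ratio, B3galt2 had rank 8 of 24653. It was among the 13 gene names (0.0527%) past an adjusted p of 0.05 in limma, of which 6 were lower (0.0243%) and 7 higher (0.0284%) in Ad/NICD, and nothing is read from this because the gene was chosen on that contrast. It was past that threshold under 7 of 16 alternative settings and not under the other 9, among them leaving out replicate 1, 2 or 3. In the scanner's background-subtracted intensities, before any scaling between colours, the probe read 64.3, 67.3, 77.9 and 264.1 in the Ad/NICD channel and 2890, 1476, 2121 and 1850 in the WT channel. The offset of 50 used in background correction pulls low signals together. With an offset of 10 and all else kept, the log2 ratio was -3.11. The scanner's processed signals, which differ in both background correction and dye scaling, gave -3.33.

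**Figure D1:**
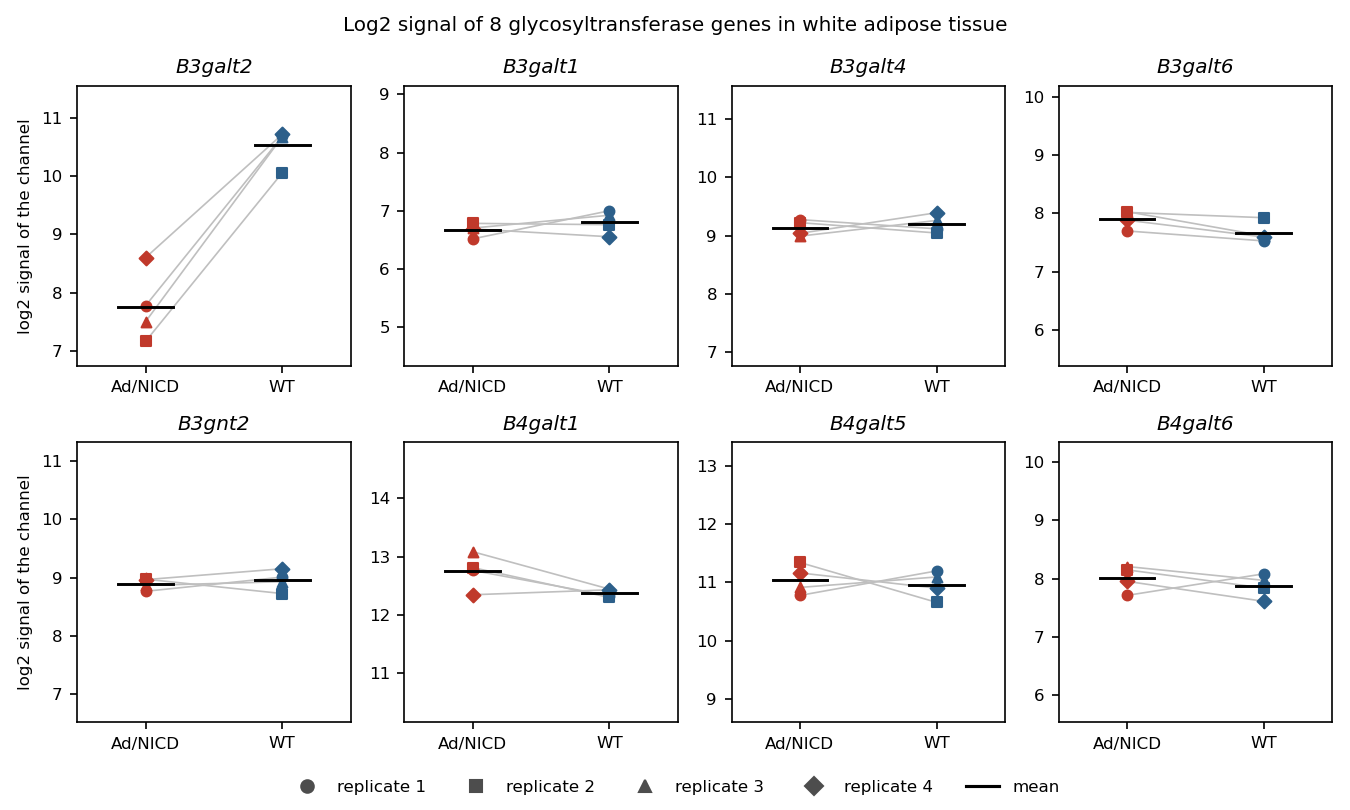
Log2 signal of each gene (vertical axis, the same span in every panel) in Ad/NICD (red) and WT (blue) samples, with grey lines joining samples of an array and bars at the means (n = 4). For B3galt2 the groups lie apart, with means of 7.76 in Ad/NICD and 10.53 in WT, and for the other 7 genes they overlap.

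B3galt1, the closest of the members in activity, also adds beta-1,3 galactose to N-acetylglucosamine. The gene spans 67565689 to 68122882 on chromosome 2 (GRCm38.p6, as for the genes that follow). It was dim, with log2 signals of 6.52, 6.79, 6.71 and 6.69 in Ad/NICD samples and 7.002, 6.76, 6.93 and 6.56 in WT samples. The groups overlapped, and the gene was lower on 2 of 4 arrays. Its mean log2 ratio was -0.14 ± 0.12 (SE, n = 4).

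B3galt4 makes the ganglioside GM1 and related glycolipids by adding beta-1,3 galactose. It lies on chromosome 17 from 33949912 to 33951488. Log2 signals were 9.27, 9.22, 8.99 and 9.04 in Ad/NICD samples, against 9.12, 9.05, 9.26 and 9.39 in WT samples. Ad/NICD was the higher on the arrays of replicates 1 and 2 and the lower on the other two. The mean log2 ratio was -0.072 ± 0.12 (SE, n = 4), and a second probe gave -0.090.

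B3galt6 adds the second galactose of the linker that ties glycosaminoglycan chains to proteoglycans. It lies on chromosome 4 from 155989466 to 155992678. Its log2 signals were 7.70, 8.02, 8.03 and 7.88 in Ad/NICD samples and 7.53, 7.93, 7.61 and 7.59 in WT samples. Ad/NICD was higher on 4 of 4 arrays, yet the groups overlapped because WT of replicate 2 reached 7.93. The mean log2 ratio was 0.24 ± 0.077 (SE, n = 4), a 1.18-fold difference.

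B3gnt2 belongs to the same sequence family but moves N-acetylglucosamine in place of galactose, and builds poly-N-acetyllactosamine chains. It lies on chromosome 11 from 22834739 to 22860336. Log2 signals were 8.77, 8.98, 8.87 and 8.97 in Ad/NICD samples and 9.01, 8.73, 8.93 and 9.15 in WT samples. The groups overlapped, and the log2 ratio averaged -0.062 ± 0.10 (SE, n = 4).

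B4galt1 is the main enzyme that adds beta-1,4 galactose to N-glycans, and with alpha-lactalbumin it makes lactose. It lies on chromosome 4 from 40804602 to 40853984. It had log2 signals of 12.76, 12.81, 13.08 and 12.35 in Ad/NICD samples, against 12.33, 12.30, 12.44 and 12.43 in WT samples. Ad/NICD was higher in replicates 1 to 3 and lower in replicate 4. The WT samples were closely grouped, at 12.37 ± 0.073 (SD, n = 4), while the Ad/NICD samples had 12.75 ± 0.31. The log2 ratio was 0.38 ± 0.13 (SE, n = 4), the highest mean among the members, and 0.53 without replicate 4. The second B4galt1 probe did not share this, with -0.0088.

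B4galt5 and B4galt6 both add galactose to glucosylceramide to make lactosylceramide, the base of most glycolipids. B4galt5 lies on chromosome 2 from 167298444 to 167349178 and B4galt6 on chromosome 18 from 20684599 to 20746404. B4galt5 had log2 signals of 10.78, 11.34, 10.92 and 11.16 in Ad/NICD samples and 11.20, 10.66, 11.09 and 10.90 in WT samples. Its ratios of -0.42, 0.68, -0.18 and 0.26 spread more widely than those of any other member, and the mean was 0.086 ± 0.19 (SE, n = 4). A second, dim B4galt5 probe had 0.040. B4galt6 had log2 signals of 7.71, 8.15, 8.21 and 7.95 in Ad/NICD samples and 8.08, 7.84, 7.97 and 7.61 in WT samples. It was lower in replicate 1 and higher in the other three, with a mean of 0.13 ± 0.14 (SE, n = 4) and 0.059 on its second probe. On the array of replicate 1 both lactosylceramide synthases were below 0, and on those of replicates 2 and 4 both were above 0.

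Set side by side, the 7 relatives had mean log2 ratios from -0.14 to 0.38, with 3 below 0 and a median of 0.086. Over all 24653 gene names the median was -0.0059 and 51.6% were below 0. On every array B3galt2 lay below the lowest of the 7. The gap to that lowest member was -2.42, -2.91, -2.90 and -1.76 on the log2 scale for replicates 1 to 4, and the lowest was B3galt1 on the first 2 of these arrays and B3galt4 on the others. Without replicate 4 the mean log2 ratio of B3galt4 changed sign, to 0.022. The others kept their sign, with -0.23 for B3galt1, 0.23 for B3galt6, -0.020 for B3gnt2, 0.53 for B4galt1, 0.028 for B4galt5 and 0.060 for B4galt6. Groups that do not overlap in level were found for 1 of the 8 members, B3galt2, and for 9.95% of all gene names in either direction (5.65% lower and 4.3% higher in Ad/NICD).

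**Figure D2:**
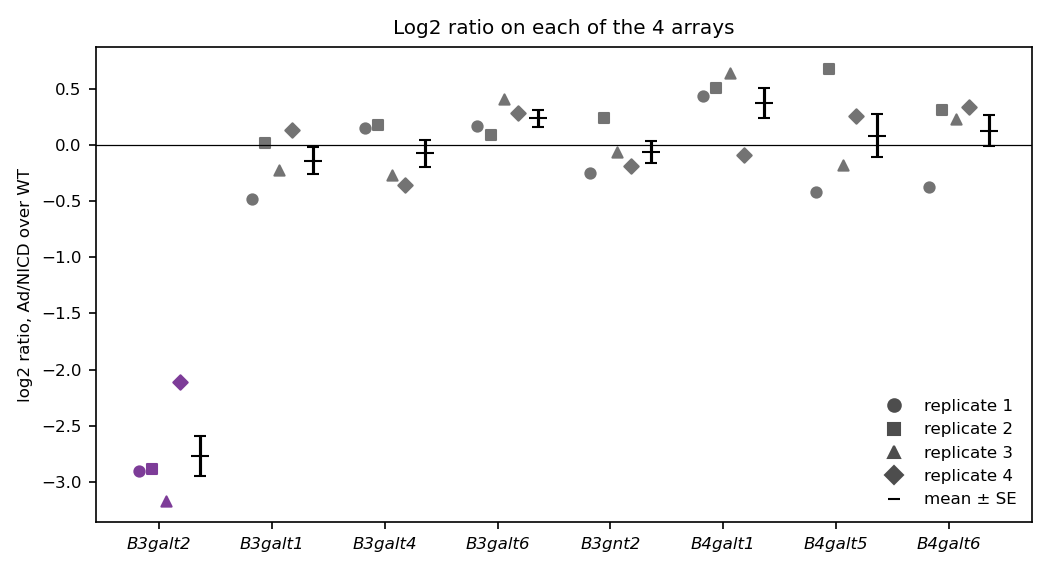
Log2 ratio of Ad/NICD over WT (vertical axis) on each of the 4 arrays for the 8 genes, with the mean and SE to the right of each set. B3galt2 lies between -3.17 and -2.12, while the other 7 lie between -0.48 and 0.68 on single arrays.

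Loess removes a trend of the ratio with brightness. When arrays were only median-centred, the median of all genes moved to -0.33, all 7 relatives lay below 0 (-0.57 to -0.027), and B3galt2 had -3.26. Relative to that median the 7 lay between -0.24 and 0.30, again with 3 below it, and B3galt2 lay at -2.93. The signs of B3galt6, B4galt1, B4galt5 and B4galt6 thus depend on the scaling. With the scanner's processed signals those of B3galt4 and B3gnt2 turned as well, to 0.021 and 0.069. The ratio of B3galt2 was negative under all 16 alternatives.

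The start sites of the members are shown because B3galt2 differed from most of its relatives in base composition there. Windows of 250 bases before and 50 after each annotated start were taken from RefSeq on GRCm38.p6, where 7 of the 8 genes had an entry, with 2 starts for B3galt1. Sequences run 5′ to 3′ on the strand of the gene. Capitals mark any match to CACGTG, an E-box bound by several helix-loop-helix factors including those of the Hes and Hey type, or to TGGGAA on either strand, the core bound by RBPJ, the DNA-binding partner of the Notch fragment. B3galt2 covers chr1:143640447-143640746 on the plus strand, the upstream B3galt1 start chr2:67565439-67565738 on the plus strand, and B3galt4 chr17:33951439-33951738 on the minus strand.
B3galt2: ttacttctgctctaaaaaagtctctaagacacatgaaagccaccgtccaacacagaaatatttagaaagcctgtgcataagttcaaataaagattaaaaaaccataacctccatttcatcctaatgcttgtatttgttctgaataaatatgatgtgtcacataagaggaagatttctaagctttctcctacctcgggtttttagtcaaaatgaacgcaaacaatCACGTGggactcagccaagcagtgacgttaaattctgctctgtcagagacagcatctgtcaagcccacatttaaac
B3galt1: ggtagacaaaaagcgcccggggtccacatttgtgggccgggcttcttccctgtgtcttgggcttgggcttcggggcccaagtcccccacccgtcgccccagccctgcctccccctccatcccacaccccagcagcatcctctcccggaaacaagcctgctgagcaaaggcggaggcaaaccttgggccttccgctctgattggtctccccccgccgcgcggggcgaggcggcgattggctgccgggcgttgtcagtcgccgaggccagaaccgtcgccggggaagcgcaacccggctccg
B3galt4: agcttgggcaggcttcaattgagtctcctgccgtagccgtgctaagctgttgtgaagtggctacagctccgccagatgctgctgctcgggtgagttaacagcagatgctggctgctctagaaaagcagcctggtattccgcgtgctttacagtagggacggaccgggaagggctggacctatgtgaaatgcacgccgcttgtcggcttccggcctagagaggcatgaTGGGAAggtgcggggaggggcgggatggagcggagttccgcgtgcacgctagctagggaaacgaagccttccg

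The B3galt2 window was 37.7% G and C and held 5 CpG sites. Of 32851 promoter windows in the table, 6.63% had a lower GC content, and the median was 52.7% with 7 CpG sites. The windows of B3galt4, B3galt6, B3gnt2, B4galt1, B4galt5 and the upstream start of B3galt1 ran from 59.7% to 75% with 20 to 48 CpG sites. The downstream start of B3galt1 was closer to B3galt2, at 42.3% with 3 CpG sites. These are descriptions of the windows only.

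B3galt2 held 1 CACGTG, beginning 26 bases before the start, and no TGGGAA on either strand. The E-box was in 7.15% of all windows and in none of the other 7 member windows. TGGGAA, on one strand or the other, was in 25.6% of all windows, and among the members it was in those of B3galt4, 23 bases before the start, and B3gnt2, 108 bases before it. TATAAA, the TATA box, searched on both strands like the others, was in 13.6% of all windows and in none of the 8. CACGTG and TGGGAA can share end letters, so the searches for them are not independent. CACGTG was added to the search after the B3galt2 sequence had been read. Binding was not measured, and a match or its lack in a window this short says nothing of a factor's action.

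**Figure D3:**
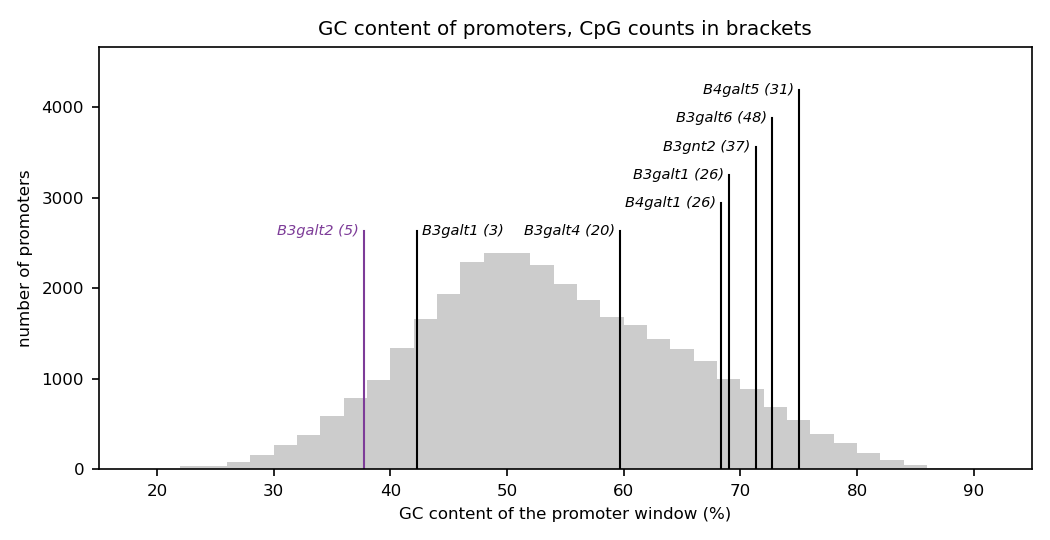
Number of RefSeq promoter windows (vertical axis) by GC content in percent (horizontal axis), with lines at the members' 8 windows and their CpG counts in brackets. B3galt2 lies at 37.7% with 5 CpG sites, and 6 of the other 7 windows lie at 59.7% or above.

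B3galt2 sits inside another gene. Cdc73, which encodes a subunit of the PAF1 complex of transcription elongation, spans 143603276 to 143702893 on chromosome 1 and runs on the opposite strand. Cdc73 had log2 signals of 7.29, 7.54, 7.28 and 7.77 in Ad/NICD samples, against 7.61, 7.90, 7.58 and 7.62 in WT samples, and the groups overlapped. Its log2 ratio was -0.21 ± 0.11 (SE, n = 4), lower on 3 of 4 arrays, and did not pass (limma adjusted p = 0.43).

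The next protein-coding gene at higher coordinates, Glrx2, a mitochondrial glutaredoxin, starts 89.3 kb away. Its brightest probe had 15.65, 15.65, 15.59 and 15.72 in Ad/NICD samples and 14.94, 15.06, 15.05 and 15.32 in WT samples, a log2 ratio of 0.56 ± 0.073 (SE, n = 4) that did not pass (limma adjusted p = 0.115). Its other 2 probes had 0.023 and 0.065, the last too dim to be kept, so the probes did not share this difference. Kcnt2, a potassium channel gene 3027 kb away at lower coordinates, had 0.023 ± 0.064 (SE, n = 4, limma adjusted p = 0.90).

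The wider machinery of galactose-bearing glycans was taken from 10 lists holding 127 genes other than the members, of which 113 were measured. In limma, 0 of the 113 passed over all genes, against 0.0527% of all gene names; the smallest adjusted p was 0.115, and 22 had an unadjusted p under 0.05 (15.4% of all gene names did). Their ratios ran from -0.93 to 0.48 with a median of -0.011, and none was as low as B3galt2. A fit of the 2 channels as separate samples, with array as random block, passed 3 of them, all lower; it passed 2.01% of all gene names, 1.15% lower and 0.86% higher. With no block, which leaves out the pairing of samples on an array, St3gal6 and Mfng passed. That fit passed 257 of 24653 gene names.

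The lists nearest to the members in sequence held small differences. Of the other beta-1,3-glycosyltransferase genes, 11 of 14 were measured, 0 passed, 8 were below 0 and the median log2 ratio was -0.11. The ratios ran from -0.31 ± 0.15 for B3gnt5, which begins lacto-series glycolipids, to 0.35 ± 0.25 for B3gnt9 (SE, n = 4). B3galnt1, which makes globoside, had 0.31 ± 0.19, and like B3gnt9 it was below 0 in replicate 1 and above 0 in the other three. B3gnt3 had -0.25 ± 0.096 and C1galt1, which makes the core of mucin-type O-glycans, -0.15 ± 0.076, both below 0 on 4 of 4 arrays. Of the other beta-1,4 genes, 6 of 8 were measured and 0 passed, with a median of 0.028. B4galt4 had 0.17 ± 0.10 and was above 0 on 4 of 4 arrays. B4galt7, which adds the first galactose of the glycosaminoglycan linker, had -0.0059 ± 0.090, beside 0.24 for B3galt6 at the next step.

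Genes that supply UDP-galactose had a median of -0.12, with 6 of 9 measured genes below 0 and 0 past the threshold. The phosphoglucomutase gene Pgm1 had -0.59 ± 0.17 and the galactokinase family gene Galk2 -0.58 ± 0.19 (SE, n = 4), and both were below 0 on 4 of 4 arrays. Without a pass in the fit, these remain values.

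Sialyl- and fucosyltransferases, which cap galactose or decorate its neighbours, had a median of -0.0035 over 16 measured genes, 8 on each side of 0. St3gal6, which adds sialic acid to terminal galactose, had the lowest mean of all 113 genes. Its ratios were -1.07, -1.29, -0.99 and -0.37 on the 4 arrays, and the mean of -0.93 ± 0.16 (SE, n = 4) did not pass (limma adjusted p = 0.128). In the separate-channel fits it passed, at a limma adjusted p of 0.0209 under the random block and 0.0323 under none. St3gal3, another sialyltransferase, had -0.53 ± 0.16. St3gal4, which also sialylates galactose, went the other way, at 0.48 ± 0.066 (SE, n = 4) and above 0 on 4 of 4 arrays, and did not pass (limma adjusted p = 0.115, the smallest among the 113 genes).

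Among N-glycan branching genes, all 10 were measured, 0 passed and 7 were below 0, with a median of -0.071. The mannosidase gene Man2a2 had -0.61 ± 0.12 and Mgat4b -0.31 ± 0.089 (SE, n = 4). Glycosphingolipid genes had 10 of 15 above 0 and a median of 0.038, with 0 past the threshold. St3gal5, which turns lactosylceramide, the product of B4galt5 and B4galt6, into the ganglioside GM3, had 0.46 ± 0.11. Gla, the lysosomal galactosidase that removes terminal galactose from globo-series lipids, had 0.41 ± 0.086, and both were above 0 on 4 of 4 arrays.

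Glycosaminoglycan linker and chain genes had a median of 0.014 over 16 of 19 measured. Extl3, a transferase that starts heparan sulfate chains, had -0.30 ± 0.067 (SE, n = 4, limma adjusted p = 0.164), with 0.0425 under the random block and 0.0669 under none. Csgalnact1, which starts chondroitin sulfate chains, had 0.38 ± 0.11. The 10 genes for O-glycans of Notch had a median of -0.012. Mfng, a fringe enzyme that lengthens O-fucose on Notch, had -0.63, -1.03, -1.11 and -0.40 on the arrays and a mean of -0.79 ± 0.14 (limma adjusted p = 0.13, and adjusted p = 0.0221 with the random block). Gxylt2, which adds xylose to O-glucose on Notch, had 0.43 ± 0.097.

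Mucin-type O-glycan genes had a median of -0.0050 over 14 measured, with Galnt11 at -0.36 ± 0.075 and Gcnt2 at 0.29 ± 0.13 (SE, n = 4). Galectins, lectins that bind galactose-bearing chains, had a median of -0.095 over 9 genes and 0 past the threshold. Lgals7, a galectin of stratified epithelium, had -0.69 ± 0.25 and Lgals4 -0.30 ± 0.095, while the highest mean was that of Lgals3, at 0.36.

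**Figure D4:**
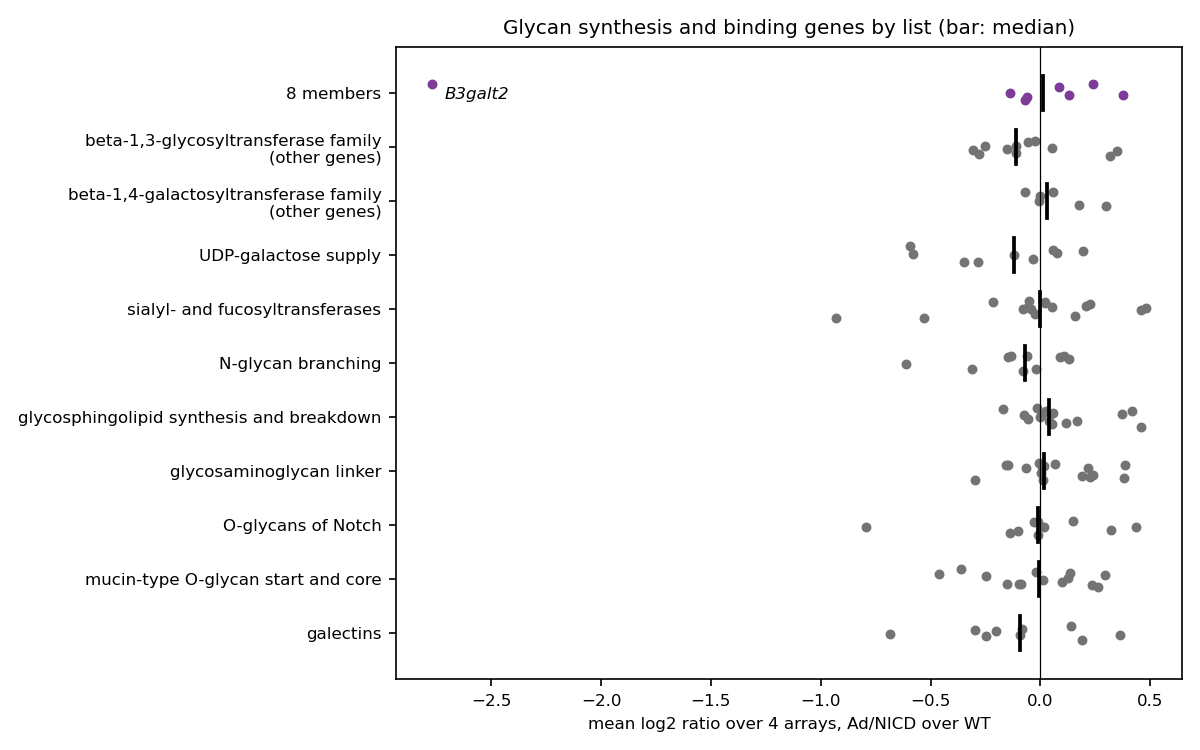
Mean log2 ratio of Ad/NICD over WT (horizontal axis) for each measured gene, in rows by list, with the 8 members on top and a bar at each median. B3galt2 at -2.77 lies far to the left of the other members and of the 113 list genes, whose lowest value was -0.93.

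White fat holds several cell types, and in whole tissue fewer cells of a type and less RNA per cell cannot be told apart. Adipocyte markers were present in every sample, with summed linear signals of 140252 to 259124 in Ad/NICD and 281512 to 384406 in WT. Of 13 markers 10 were below 0, with a median log2 ratio of -0.62 and array medians of -0.27, -1.23, -1.08 and -0.044. The receptor gene Adrb3, through which noradrenaline starts lipolysis, had -1.87 ± 0.23, and Retn, which encodes resistin, had -1.83 ± 0.39 (SE, n = 4). On the arrays of replicates 1 and 4, where the adipocyte median was nearest to 0, B3galt2 had -2.91 and -2.12. The part of adipocyte content in the B3galt2 difference was not tested.

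Markers of other cells differed in their direction, and none passed over all genes. Skeletal muscle had 12 of 12 genes below 0, at a median of -1.86 and array medians of -0.55, -1.98, -0.53 and -3.86. Their summed signal was 2048 to 10821 in Ad/NICD and 3600 to 186094 in WT, the highest being WT of replicate 4. Tnnc2 and Myh4, of the muscle fibre, had -2.61 ± 0.46 and -2.48 ± 0.54. B3galt2 was lowest on the array of replicate 3, where the muscle median was -0.53, and least low on that of replicate 4, where the muscle median was -3.86. The part of muscle content in the B3galt2 difference was not tested.

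All 9 endothelial genes were below 0, at a median of -0.25 and summed signals of 21731 to 28223 in Ad/NICD and 30109 to 33284 in WT, led by Cldn5 at -1.21 ± 0.14 and Robo4 at -0.56 ± 0.11. Erythroid genes had 5 of 5 below 0 at a median of -0.61 (60756 to 101040 in Ad/NICD, 90890 to 119961 in WT), with Hbb-b1 at -0.88 ± 0.20 and Hbb-bt at -0.80 ± 0.21. B cell genes had 4 of 5 below 0 at a median of -0.45 (10374 to 15940 in Ad/NICD, 14381 to 23385 in WT), with Cd79b at -0.56 ± 0.18 and Ms4a1 at -0.48 ± 0.14, and the array median was above 0 in replicate 2. Mammary epithelium genes had 7 of 7 below 0 at a median of -0.44 (634 to 27572 in Ad/NICD, 613 to 24277 in WT), led by Krt5 at -0.94 ± 0.41 and Krt14 at -0.59 ± 0.33, and Wap was not kept. Their array medians were -1.02, -1.33, 0.24 and -0.018, so the arrays did not share a direction. Both low sums, 634 and 613, were those of replicate 4, whose samples also stood apart for Xist. Macrophage genes had 3 of 6 below 0 at a median of 0.0090 (16965 to 29607 in Ad/NICD, 16838 to 28746 in WT), with Mrc1 at 0.65 ± 0.25 and Adgre1 at 0.48 ± 0.32, and array medians of -0.62, 0.42, -0.22 and 0.77.

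Nerve and glia genes had 5 of 6 above 0 at a median of 0.29 (17302 to 30923 in Ad/NICD, 15418 to 22963 in WT), with Ngfr at 1.38 ± 0.45 and S100b at 1.35 ± 0.14. Progenitor and fibroblast genes had 7 of 7 above 0 at a median of 0.34 (71984 to 119789 in Ad/NICD, 44554 to 106610 in WT), with Cd34 at 0.52 ± 0.27 and Col3a1 at 0.50 ± 0.44. Here the array medians were -0.47, 0.52, -0.0093 and 1.31, below 0 in replicates 1 and 3 and highest in replicate 4. In the random-block fit 5 of all the marker genes passed, namely Adig, Adrb3, Retn and Cldn5, lower, and S100b, higher. They were 3 of 13 adipocyte, 1 of 9 endothelial and 1 of 6 nerve and glia genes. No gene of the other marker lists passed. That fit passed 2.01% of all gene names, 1.15% lower and 0.86% higher. Which cells of the tissue carry the B3galt2 signal is not resolved by whole-tissue RNA, and the part of these markers in its difference was not tested.

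**Figure D5:**
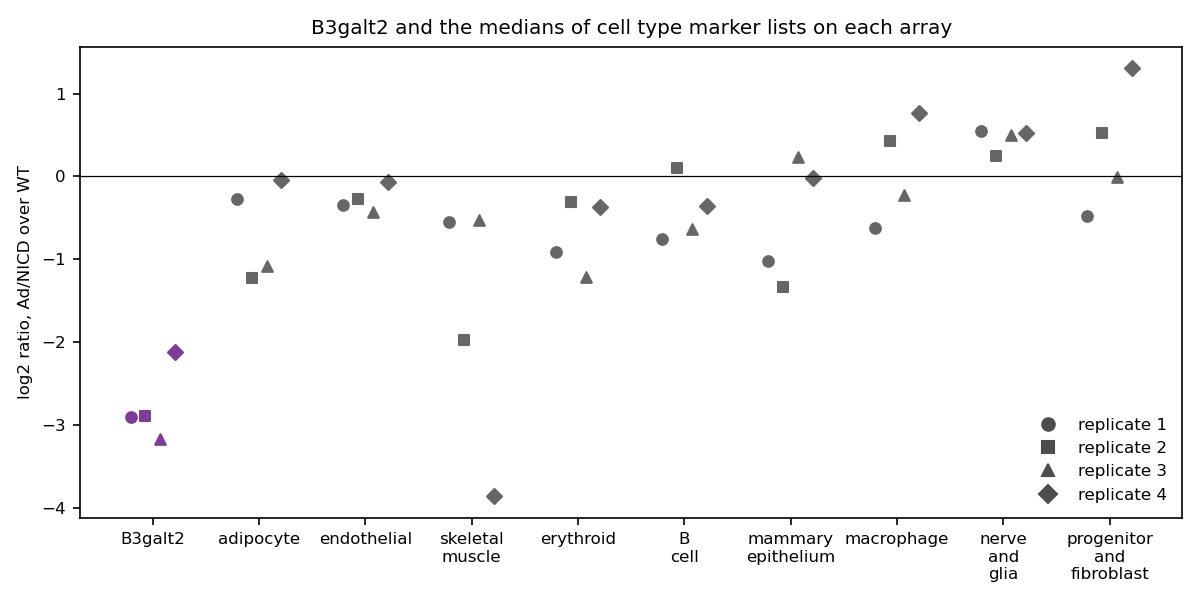
Log2 ratio of Ad/NICD over WT (vertical axis) of B3galt2 and the median log2 ratio of each marker list, with 1 point per array. B3galt2 lies between -3.17 and -2.12 on every array, while the skeletal muscle median runs from -0.53 to -3.86 and the adipocyte median from -0.044 to -1.23.

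Likeness to B3galt2 was measured as Pearson's r of log2 signals over the 8 samples, which share the genotype difference and the arrays. The 5 names of highest r, at 0.989 to 0.995, had mean log2 ratios between -0.90 and -0.66, and 1 of them, Gm6756, has a gene symbol. Among the relatives r was highest for B3galt1, at 0.40, and lowest for B4galt1, at -0.80. With each sample taken as its deviation from its genotype mean, the names of highest r were Apol9b (0.988), AK016840 (0.976), Nkx1-1 (0.975), Agt (0.972) and Thra (0.971), and of the relatives B3gnt2 had 0.40 and B4galt1 -0.64. Their own mean log2 ratios were 0.15 for Apol9b, -0.13 for AK016840, 0.052 for Nkx1-1, -0.36 for Agt and 0.026 for Thra. These 5 names were drawn from all 24653, and no meaning is attached to the order.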

How the data were processed

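RNA of 4 Ad/NICD and 4 WT samples was hybridised to 4 arrays with 2 colours each; tables of same-numbered samples were identical. Per the submitters' processing notes, Agilent Feature Extraction 11.5 was used. The deposited tables hold intensity values per spot (median foreground and background, background-subtracted and processed signals) and a log10 ratio of red over green. The authors' deposited value table is on a log2 scale, each column equal to the log2 processed signal of 1 channel minus a constant. Its column medians lay between -3.82 and -3.51. What was subtracted is not stated, but the 75th percentiles of the columns lay between 0.00438 and 0.013. The constant was therefore close to the 75th percentile of each column.

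Background was corrected by normexp (offset 50) and ratios by loess within each array, where control spots had weight 0 (limma 3.58.1, R 4.3.3). Probes were named through accessions in a RefSeq table (28026 matched, 27655 not). Probes well above background in 1 channel on at least 3 arrays were kept, and the brightest stood for a gene. Flags were missing for the array of replicate 1 and were replaced by a signal above 6 times the SD of negative controls, a multiple picked because it matched the scanner's own flag at 97.3% to 99.7% of spots where one exists. Counting either channel on each array would keep 25106 names with 12 calls; the same-channel reading was taken after both counts had been seen.

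Log2 ratios were tested against 0 with lmFit and eBayes and Benjamini-Hochberg adjustment over all gene names. The array is the pair. Deviations of same-numbered samples had correlations of 0.175, 0.165, 0.566 and 0.529 for replicates 1 to 4. Between samples of different number they ran from -0.533 to 0.287, the highest for Ad/NICD of replicate 3 with WT of replicate 1. The same-number value lay above all of these for replicates 3 and 4, and not for the other replicates. What else same-numbered samples share is not in the labels. The p-values weigh the mean ratio against the spread of the ratios between these arrays. Levels are log2 signals per channel after scaling of average brightness between arrays. SE is that of the moderated fit. The number of arrays limits the precision.

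Members and lists were chosen with earlier results of these data known. Genes named from a list were those past the threshold or, where fewer than 2 passed, up to 2 of largest ratio with 1 sign on 4 arrays; marker lists gave the 2 of largest ratio. B3gnt5, B3gnt9, B3galnt1, B4galt7, St3gal4, Lgals3, Adig and the other Glrx2 probes were named after their values were seen. The fit was tested on simulated data.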

Additional observations from a re-analysis of the deposited data

Results flagged for a closer look

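The WT sample of replicate 2 stood apart from the other WT samples for B3galt2, with a log2 signal of 10.06 against 10.68 to 10.72 in the other 3. The Ad/NICD sample of the same array was also the lowest of its group, at 7.17, so the ratio of this array, -2.89, lay among the others.

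For B4galt6 the log2 ratio of replicate 1 stood apart, at -0.37 against 0.24 to 0.34 on the other 3 arrays. The second B4galt6 probe had the same sign on that array, at -0.42. In all, 24 groups of 4 values were examined, and chance singles out about 1 in 20.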

How the results depend on the processing

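The B3galt2 log2 ratio was -3.30 with plain background subtraction, -3.33 with processed signals as deposited, -3.26 with median centring and -3.35 in the authors' deposited value table, and from -2.99 to -2.64 with a replicate left out, always lower in Ad/NICD. The count of gene names past the threshold was 13, and it was 1 with plain background subtraction, 4 with processed signals, 5 in the authors' value table, 0 with median centring (9564 at an unadjusted p under 0.05), 0 with no filter on dim probes (5092) and 0 with eBayes trend and robust settings (2892), all in limma. It was 257 in separate channels with no replicate block and 495 with the array as a random block, 12 of the 13 being in each set. Leaving out a replicate gave 0 to 43: 0 without replicate 1, 2 or 3 and 43 without replicate 4. Of the 113 list genes 0 passed, against 2 with no replicate block and 3 with the array as a random block. The causes were not tested. With probes counted in either channel, an alternative added after seeing the data, 12 names passed, all among the 13. Of 112 values of the other 7 members, 106 stayed within 1 SD over arrays, and the 6 that did not arose under median centring, which took the median of all genes to -0.33. Signs turned under at least 1 alternative for each of the 7 except B3galt1. With a normexp offset of 10 B3galt2 had -3.11, a move of less than 1 SD over arrays (0.46). With plain background subtraction, processed signals, median centring and the authors' value table it moved by more than 1 SD, each time further below 0.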
